A study of Mus musculus with 33 samples.

Results

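Heat shock factor 1 (HSF1) and serum response factor (SRF) were followed at 9 actomyosin genes of mouse embryonic fibroblasts (MEFs), namely Wdr1, Flnc, Cald1, Myl12a, Myh9, Tpm1, Actg1, Cfl1 and Acta2. They were 9 of the 21887 protein-coding genes of the gene table, and they were chosen by the peaks seen near them in these lists. A peak was assigned to a gene when its summit lay within the gene or within 10 kb of it. The presence, tags and positions of these peaks chose the genes, and they are given as a description, without a test. Peaks came from chromatin immunoprecipitation followed by sequencing (ChIP-seq), and each peak is a place where the authors' peak caller found more sequenced tags than its background.

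The lists covered HSF1-/- MEFs with the antibodies CS (bought from Cell Signaling) and MM (given by another laboratory), and wild type MEFs with CS, MM and an antibody against SRF. Cells were unheated or heated for 12 or 60 min, with 1 list per genotype, antibody and time, 15 lists in all. All cells had the 129Sv.BALB/c background. The labels used here give no temperature, no exons of the HSF1 allele and no number of cell lines. CS and MM are treated as HSF1 antibodies because the file headers call the experiment an Hsf1 ChIP-seq, and the HSF1-/- lists show what both antibodies gave in cells lacking HSF1. The other 18 samples of the series were not analysed here.

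Actomyosin is the contractile and structural network of actin filaments, the myosin II motors that pull on them and the proteins that cross-link, stabilise or sever them. HSF1 is activated by misfolded protein, trimerises and binds heat shock elements, arrays of inverted GAA units, in front of chaperone genes and many others. SRF binds CArG boxes in front of cytoskeletal genes and is assisted by myocardin-related coactivators, which are released into action when free actin monomers are used up in filaments.

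The peaks split the genes into groups. Wdr1, Myl12a and Myh9 had HSF1 and SRF peaks that overlapped at 12 min. Their SRF peaks had pileups of 5, 3 and 2 tags, in that order. Flnc and Cald1 had HSF1 peaks and no SRF peak. Tpm1, Actg1 and Cfl1 had an SRF peak at 12 min and no wild type HSF1 peak. Acta2 had neither, and entered through HSF1-/- peaks alone. Of 45686 peaks in the 15 lists, 73 lay at the 9 genes, 40 with the summit inside the gene and 33 outside it. They comprised 27 HSF1-/- peaks, 40 wild type HSF1 peaks and 6 SRF peaks.

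**Figure D1:**
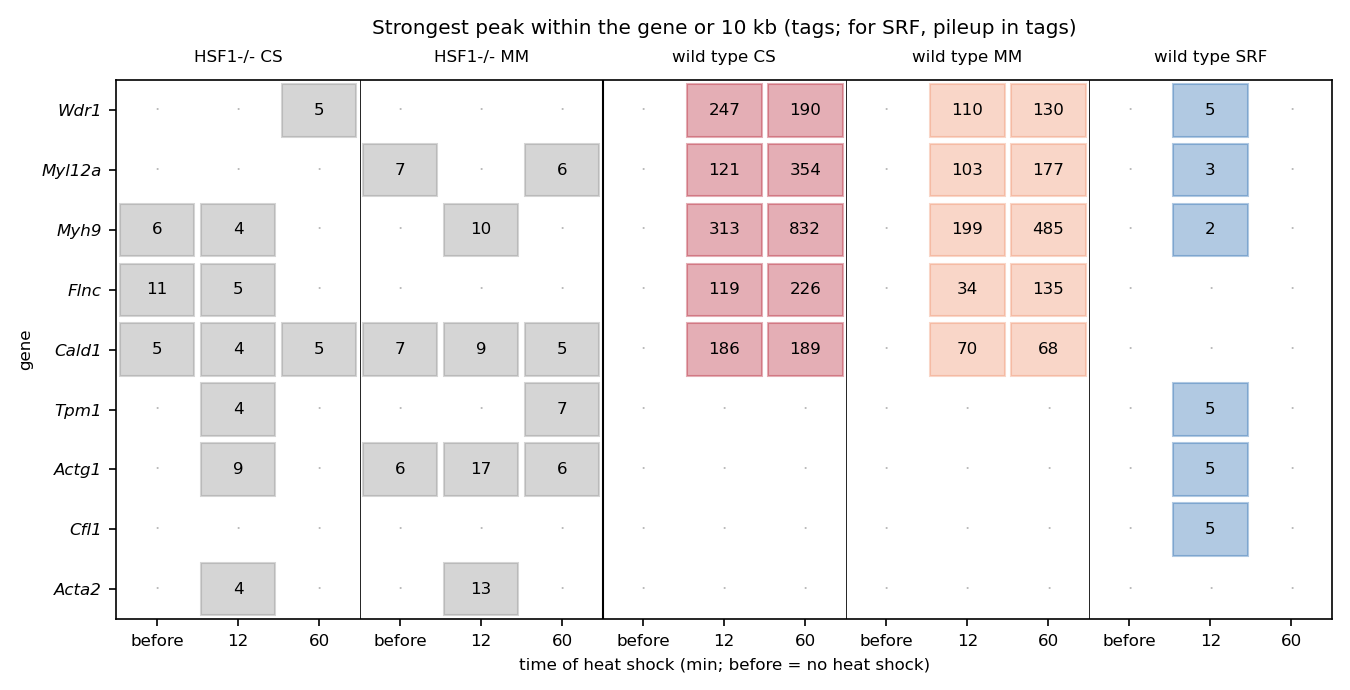
Peaks within the gene or 10 kb for each of the 9 genes (one line per gene) in each of the 15 lists (columns, HSF1-/- lists left of wild type lists, times in order); the number in a cell is the highest tag count of a peak there (pileup for SRF). Wild type HSF1 peaks stand at 5 genes at 12 and 60 min, and SRF peaks at 6 genes at 12 min.

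The start regions of 5 genes are shown because the comparison of HSF1 and SRF turns on them. Each is the RefSeq promoter window of GRCm38.p6, from 250 bases before to 50 bases after the annotated start, 5′ to 3′ on the strand of the gene. Capitals mark CArG boxes with at most 1 mismatch and, in Myl12a, also the heat shock element core GAANNTTC. The windows are Wdr1 chr5:38561650-38561949 (minus strand), Myl12a chr17:71002484-71002783 (minus), Tpm1 chr9:67049164-67049463 (minus), Actg1 chr11:120348446-120348745 (minus) and Flnc chr6:29432903-29433202 (plus).
Wdr1: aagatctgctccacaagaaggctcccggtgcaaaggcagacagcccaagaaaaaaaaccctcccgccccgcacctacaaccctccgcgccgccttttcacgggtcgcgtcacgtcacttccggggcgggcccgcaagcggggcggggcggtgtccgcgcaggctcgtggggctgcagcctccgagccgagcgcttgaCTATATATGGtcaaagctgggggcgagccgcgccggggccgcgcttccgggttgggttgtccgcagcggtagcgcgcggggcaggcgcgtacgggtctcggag
Myl12a: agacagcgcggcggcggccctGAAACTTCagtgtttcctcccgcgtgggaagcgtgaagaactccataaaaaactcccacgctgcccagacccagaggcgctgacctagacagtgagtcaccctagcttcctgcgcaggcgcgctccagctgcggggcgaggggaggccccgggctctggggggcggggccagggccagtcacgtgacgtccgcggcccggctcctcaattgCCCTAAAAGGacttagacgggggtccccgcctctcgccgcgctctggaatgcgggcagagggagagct
Tpm1: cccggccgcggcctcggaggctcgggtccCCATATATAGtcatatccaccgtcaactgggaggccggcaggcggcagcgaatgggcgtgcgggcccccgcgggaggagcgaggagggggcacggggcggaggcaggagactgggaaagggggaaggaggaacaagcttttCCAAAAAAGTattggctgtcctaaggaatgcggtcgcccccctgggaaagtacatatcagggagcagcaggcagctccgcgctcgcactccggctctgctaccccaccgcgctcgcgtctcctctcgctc
Actg1: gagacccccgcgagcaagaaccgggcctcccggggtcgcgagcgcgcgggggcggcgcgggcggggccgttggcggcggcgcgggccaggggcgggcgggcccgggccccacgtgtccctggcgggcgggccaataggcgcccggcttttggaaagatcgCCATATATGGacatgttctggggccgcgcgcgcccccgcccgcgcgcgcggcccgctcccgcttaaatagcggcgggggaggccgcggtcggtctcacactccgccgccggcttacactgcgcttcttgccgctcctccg
Flnc: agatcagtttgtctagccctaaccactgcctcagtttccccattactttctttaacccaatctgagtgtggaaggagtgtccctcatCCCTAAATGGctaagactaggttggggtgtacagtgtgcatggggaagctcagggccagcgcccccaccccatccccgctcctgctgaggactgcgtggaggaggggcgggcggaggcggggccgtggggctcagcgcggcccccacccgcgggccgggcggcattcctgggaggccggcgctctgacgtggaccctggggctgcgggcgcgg

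With HSF1 antibodies, 5 of the 9 genes had a peak in both the CS and the MM list of wild type cells at 12 min, against 5.32% of all protein-coding genes. The same 5 genes (Wdr1, Flnc, Cald1, Myl12a and Myh9) had both at 60 min, against 11.3% of all. Before heat shock 0 of 9 had both, against 0.535% of all, and 0 of 9 had a peak in either list, against 2.17%. In the HSF1-/- cells 5 of 9 had a peak in either list before heat shock (26.1% of all genes), 6 of 9 at 12 min (26.2%) and 5 of 9 at 60 min (24.0%). Over all times it was 8 of 9, against 47.4% of all genes. Both HSF1-/- lists had a peak at 1 of 9 before heat shock (5.12% of all), at 4 of 9 at 12 min (6.11%) and at 1 of 9 at 60 min (5.23%). With either wild type list the count was again 5 of 9 at 12 min (8.17% of all) and 5 of 9 at 60 min (17.7%). Nothing is read from these counts, because the genes were picked for their peaks. Long genes collect more peaks. Among the 3070 genes that span at least the 81591 bp of Myh9, 50.3%, 50.9% and 43.7% had an HSF1-/- peak before and at 12 and 60 min, while 1.14%, 10.6% and 24.5% had wild type peaks of both antibodies. Cald1, with 176975 bp, is also that long.

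HSF1-/- peaks held 4 to 17 tags (median 6), and 64.49 was their highest score, which is minus 10 times the log10 of the p-value. The medians of the 6 HSF1-/- lists over all peaks were 4 to 7 tags. HSF1-/- lists had no control library and 5.18 to 15.6 M (mega) tags, against 14.0 to 26.3 M in the wild type HSF1 lists, where peaks held 21 to 832 tags. The fragment length estimated by the caller was 33 to 40 bp in HSF1-/- lists, against 107 to 161 bp in wild type HSF1 lists of 12 and 60 min. In the unheated wild type lists it was 45 bp (CS) and 40 bp (MM), so wild type lists before and after heat shock differ in it as well. Tags of the genotypes are therefore set side by side only as the lists give them, and their difference is not read as one of binding. Fold enrichments overlapped, with 5.85 to 26.74 in HSF1-/- peaks and 6.01 to 86.59 in wild type HSF1 peaks. The SRF lists rest on few distinct tags, 0.751 M before heat shock, 1.55 M at 12 min and 0.949 M at 60 min, so where no SRF peak is listed, binding was not detectable at this depth, which does not show that it was absent. ChIP-seq averages over all cells, so fewer bound cells and less binding per cell cannot be told apart.

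Merged by overlap of at least 1 bp, the 40 wild type HSF1 peaks formed 15 regions, and 6 of them were in all 4 lists of 12 and 60 min. These 6 were the start regions of Wdr1, Flnc, Cald1 and Myl12a and a pair of regions deep inside Myh9. A further 7 regions had a peak at 60 min and none at 12 min, and 1 region, in Cald1, had a peak at 12 min and none at 60 min. HSF1-/- peaks of some time overlapped 4 of the 15 regions. Of the 40 peaks, 33 had an FDR of at most 5% in the authors' lists.

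Wdr1 encodes the cofactor of cofilin that speeds the disassembly of actin filaments. It lies on chr5:38526806-38562922 (minus strand), and its HSF1 region, chr5:38560073-38562562, surrounds the annotated start. No HSF1-/- list had a peak there, and the wild type region held 247 CS and 110 MM tags at 12 min and 190 CS and 130 MM tags at 60 min. Fold enrichments over background were 38.38, 27.0, 34.94 and 24.75 in the same order. The 4 summits lay 244 to 302 bp before the start, within 58 bp of each other. Within its list the CS peak ranked 115 of 1781 by tags at 12 min and 622 of 4773 at 60 min. A second region, chr5:38520812-38521646, stood beyond the far end of the gene at 60 min only, with 61 CS and 28 MM tags in wild type cells. This second region was overlapped by the 1 HSF1-/- peak of the gene, a CS peak of 5 tags at 60 min.

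An SRF peak overlapped the HSF1 peaks of 12 min at this start. The SRF peak of 12 min had a pileup of 5 tags (−log10 q 4.69), and its summit lay 51 bp before the start, 193 bp from the CS summit and 251 bp from the MM summit. The SRF summit fell inside CTATATATGG, which begins 53 bp and ends 44 bp before the start. This CArG box has 1 mismatch and is the one in capitals in the Wdr1 window. No SRF peak was listed at Wdr1 before heat shock or at 60 min.

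Myl12a encodes a regulatory light chain of nonmuscle myosin II, whose phosphorylation switches the motor on. The gene lies on chr17:70993793-71002533 (minus strand), with its HSF1 region at chr17:71001590-71004546. HSF1-/- cells had 1 peak overlapping it, with 6 MM tags at 60 min. The wild type region held 121 CS and 103 MM tags at 12 min and 354 CS and 177 MM tags at 60 min. All 4 wild type summits lay 294 to 341 bp before the start, within 47 bp of each other. By tags the CS peak ranked 411 of 1781 at 12 min and 186 of 4773 at 60 min.

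The Myl12a SRF peak of 12 min was weaker than that of Wdr1, with a pileup of 3 tags and a −log10 q of 1.29. Its summit was 11 bp before the start and 283 bp from both HSF1 summits of that time. It fell inside CCCTAAAAGG, 18 to 9 bp before the start, another CArG box with 1 mismatch. The Myl12a window also holds GAAACTTC, 229 to 222 bp before the start and 65 bp from the nearest HSF1 summit. It is 1 of 11 windows of the 9 genes with GAANNTTC or TTCNNGAA. A second region of 60 min, chr17:70986549-70987946, had 169 CS and 55 MM tags and lay inside the neighbour Myl12b, a near copy of Myl12a, with its main summits 3017 and 3079 bp after the Myl12b start. The sources used here do not say how reads from near-identical copies were placed, which also touches Actg1, Acta2 and Cfl1, genes with close paralogs or processed pseudogenes.

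**Figure D2:**
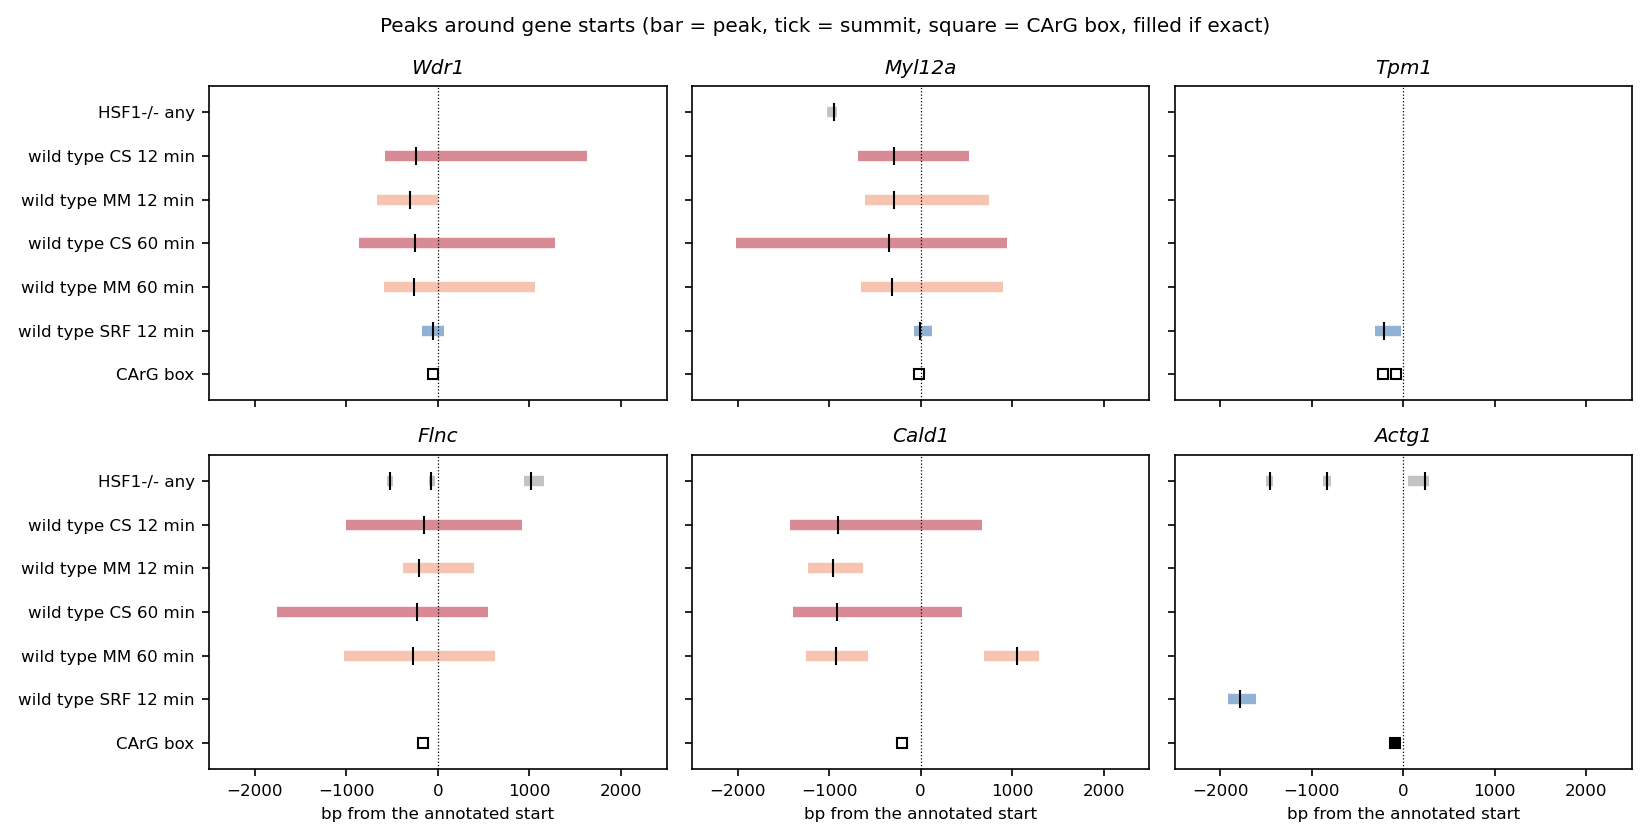
Summits around the annotated starts of the genes (horizontal axis, bp from the start, negative before it), for 6 genes (for Cald1, its first start); bars are peaks, ticks their summits, HSF1-/- peaks of any time stand above the wild type lists, and squares are CArG boxes, filled where exact. At Wdr1 the SRF summit is 51 bp before the start and the HSF1 summits are 244 to 302 bp before it; at Myl12a the SRF summit is 11 bp and the HSF1 summits are 294 to 341 bp before it.

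Myh9 encodes the heavy chain of nonmuscle myosin IIA, the main motor of the fibroblast cortex and stress fibres. It lies on chr15:77760585-77842175 (minus strand) and held 13 of the 40 wild type HSF1 peaks, the most of the 9 genes. Its main sites are far from the start. The region chr15:77797737-77802314 held 313 CS and 107 MM tags at 12 min and 832 CS and 485 MM tags at 60 min in wild type cells, with summits 42606 to 42644 bp after the start. These summits lay inside Myh9, but the annotated start of Apol8 was slightly nearer, at 42521 to 42559 bp. At 60 min the peaks of this region ranked 16 of 4773 (CS) and 25 of 4614 (MM) by tags. The MM list of 12 min had a further peak of 80 tags in the same region, and HSF1-/- cells had 1 peak overlapping it, of 10 MM tags at 12 min.

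The next region, chr15:77805527-77808136, had no HSF1-/- peak and held 301 CS and 199 MM tags at 12 min and 520 CS and 307 MM tags at 60 min in wild type cells. Its 4 summits lay 35381 to 35399 bp after the start, within 18 bp of each other, the tightest of the 6 regions. Fold enrichments were 48.11, 40.97, 86.59 and 79.46, against 16.57, 9.9, 45.22 and 37.36 in the region with more tags, so the order of the pair by tags at 60 min is not their order by fold. At 60 min only, 158 CS and 76 MM tags stood 6469 and 6474 bp before the start. The MM list of 60 min alone had 126 tags 201 bp before the start, with a fold of 6.01 that ranked 4604 of 4614, and 37 tags near the far end of the gene. The gene table used gives no exons, so whether the sites inside Myh9 are exonic or intronic was not determined.

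The SRF peak in Myh9 was the lowest of the 6, with a pileup of 2 tags and a −log10 q of 0. Its summit lay inside the gene, 691 bp from the MM and 698 bp from the CS summit of the 42606 to 42644 bp region at 12 min. The start of Apol8 was nearer to this SRF summit (41830 bp) than that of Myh9 (43335 bp). The Myh9 promoter window held no CArG box with at most 1 mismatch, the only window set of the 9 genes without one.

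**Figure D3:**
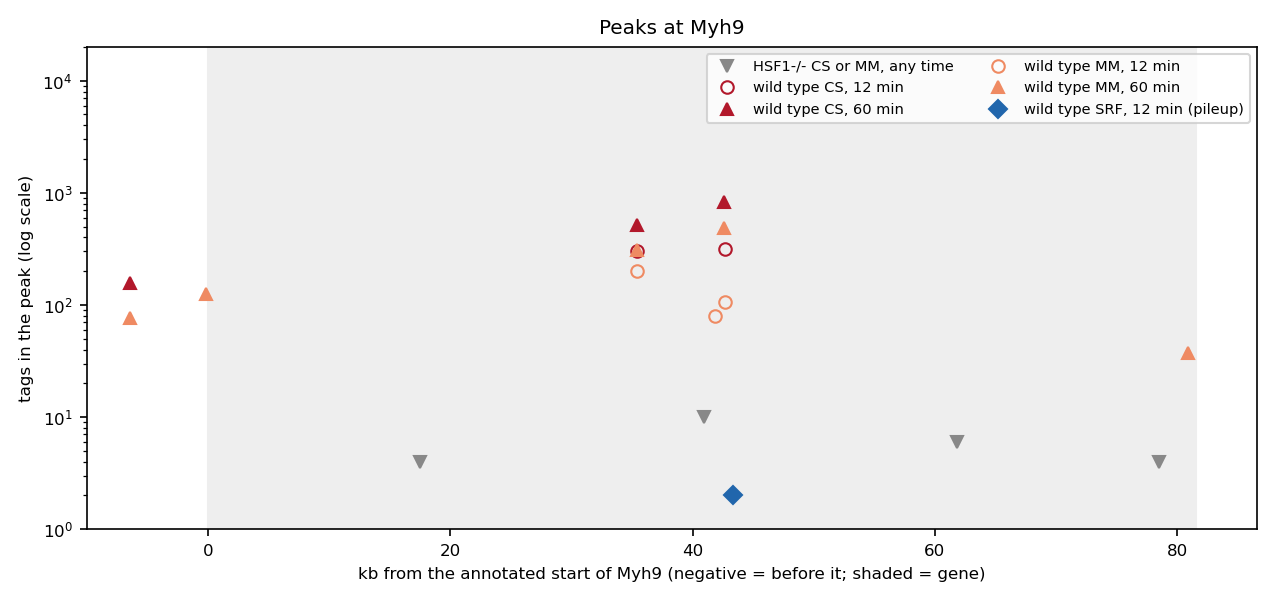
Peaks along Myh9, with distance from its annotated start in kb on the horizontal axis and tags in the peak on a log scale on the vertical axis (pileup for SRF); grey triangles are HSF1-/- peaks, red and orange marks wild type CS and MM peaks. HSF1-/- peaks hold 4 to 10 tags, the wild type regions inside the gene reach 520 and 832 CS tags at 60 min, and the SRF peak of pileup 2 lies beside the 832-tag region; the lists differ in depth and control, so heights are not on one scale between genotypes.

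Flnc encodes filamin C, a muscle-enriched actin cross-linker that chaperones hand over for degradation when tension unfolds it. The gene lies on chr6:29433153-29461889 (plus strand), and its start region is chr6:29431393-29434077. HSF1-/- cells had 2 CS peaks of 4 tags overlapping it at 12 min. The wild type region held 119 CS and 34 MM tags at 12 min and 226 CS and 135 MM tags at 60 min, with summits 150 to 271 bp before the start. Fold enrichments were 11.18 and 7.21 at 12 min, ranks 1714 of 1781 and 1868 of 1927, and the MM peak of 12 min had an FDR of 29.13%. At 60 min they were 27.04 and 21.49 with FDRs of 0.56% and 0.27%. The window holds CCCTAAATGG, a CArG box with 1 mismatch that lies 163 to 154 bp before the start and 4 bp from the nearest HSF1 summit, and no SRF peak was listed. Other HSF1-/- peaks were a CS peak of 11 tags 1019 bp after the start before heat shock and a CS peak of 5 tags at 12 min.

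Cald1 encodes caldesmon, which binds actin, tropomyosin and myosin and restrains the motor. It lies on chr6:34598495-34775469 (plus strand) with 2 annotated starts. Its main region, chr6:34597080-34599178, had no HSF1-/- peak and held 186 CS and 70 MM tags at 12 min and 189 CS and 68 MM tags at 60 min in wild type cells. The 4 summits lay 904 to 954 bp before the nearest start, within 50 bp of each other, which is outside the promoter window. Fold enrichments were 42.07, 33.1, 52.79 and 39.96. A region inside the gene, chr6:34695331-34695963, was in 3 lists with 26 CS tags at 12 min and 33 CS and 21 MM tags at 60 min, each with an FDR of 19.81% to 20.89%. The other 3 Cald1 regions were in 1 list each, with 22 MM tags at 12 min and 34 CS tags or 32 MM tags at 60 min, at FDRs of 12.62% to 16.28%. HSF1-/- peaks numbered 7 over the gene, with 4 to 9 tags in all 6 lists, none of them overlapping a wild type region.

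Genes with SRF alone follow. SRF peaks of 12 min stood at 6 of the 9 genes, against 0.251% of all protein-coding genes. Before heat shock and at 60 min they stood at 0 of 9, against 0.192% and 0.0868% of all. SRF together with HSF1 by CS or MM was at 3 of 9 genes at 12 min, against 0.105% of all, and so was SRF together with both antibodies, against 0.0914%. With an SRF −log10 q of at least 1.3, or an SRF pileup of at least 4 tags, the count at 12 min was 1 of 9, Wdr1. The share of all protein-coding genes was not computed under these limits. Without them, SRF together with either antibody was at 0 of 9 in unheated cells (0.0228% of all) and 0 of 9 at 60 min (0.0366%). With both antibodies it was at 0 of 9 (0.0137%) and 0 of 9 (0.032%).

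Tpm1 encodes a tropomyosin that lies along the actin filament and governs the access of myosin and cofilin. The gene spans chr9:67022590-67049672 (minus strand). Its SRF peak had a pileup of 5 tags and a −log10 q of 4.69, with the summit 212 bp before the start. That summit is the last base of CCATATATAG, 221 to 212 bp before the start. A second CArG box with 1 mismatch, CCAAAAAAGT, lies 80 to 71 bp before the start. HSF1-/- peaks at Tpm1 held 4 CS tags at 12 min and 7 MM tags at 60 min, and no wild type HSF1 peak was listed within 10 kb. The nearest HSF1 summit of 12 min was 60159 bp from the SRF summit.

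Actg1 encodes cytoplasmic gamma-actin, chr11:120345687-120348495 (minus strand). Its window carries the one exact CArG box of the 9 genes, CCATATATGG, 90 to 81 bp before the start. The SRF summit was not there. It lay 1790 bp before the start, 1700 bp from that box, inside the neighbour 0610009L18Rik, and had a pileup of 5 tags with a −log10 q of 4.69. Actg1 also held the HSF1-/- peak with the most tags, 17 MM tags at 12 min with its summit 233 bp after the start. The other HSF1-/- peaks there held 6 MM tags before heat shock, 9 CS tags at 12 min and 6 MM tags at 60 min. The nearest HSF1 summit of 12 min was 98717 bp from the SRF summit.

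Cfl1 encodes cofilin, which severs and depolymerises actin filaments and works together with the Wdr1 protein. It lies on chr19:5490455-5494031 (plus strand), and it had no HSF1-/- peak and no wild type HSF1 peak. The SRF summit, with a pileup of 5 tags and a −log10 q of 4.69, was 1306 bp before the Cfl1 start, and the nearest annotated start was that of Mus81, 770 bp away. The box in the Cfl1 window, CGTTTTTTGG, is 1141 bp from that summit.

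Acta2 encodes smooth muscle alpha-actin, the textbook marker of myofibroblasts, on chr19:34240336-34255585 (minus strand). Its 3 peaks were all of HSF1-/- cells at 12 min, with 4 CS tags 598 bp after the start, 9 MM tags 522 bp after it and 13 MM tags 95 bp after it. The window carries 2 CArG boxes with 1 mismatch, CCCTATATGG 84 to 75 bp and CCTTGTTTGG 34 to 25 bp before the start. No SRF peak was listed within 10 kb. The closest peak outside the 10 kb window of any of the 9 genes was also at Acta2, an HSF1-/- CS peak of 4 tags at 10007 bp, and the farthest one inside was an HSF1-/- CS peak of 5 tags 6757 bp from Flnc.

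The distances between SRF and HSF1 are split by the grouping itself. Tpm1, Cfl1 and Actg1 were grouped by having no wild type HSF1 peak within 10 kb of the gene. Other SRF peaks of 12 min had distances in between, such as 5913 and 11251 bp. At Wdr1, Myl12a and Myh9 the nearest HSF1 summit of 12 min was 193, 283 and 691 bp from the SRF summit, and the nearest of 60 min was 195, 307 and 720 bp away. At Tpm1, Cfl1 and Actg1 it was 60159, 83693 and 98717 bp away at 12 min and 58478, 21918 and 45502 bp away at 60 min. Of all 68 SRF peaks of 12 min, 66 had an HSF1 peak on their chromosome, with a median distance of 41421.5 bp, and 18 lay within 1 kb of one, 3 of them at the 9 genes. Of 64 SRF peaks before heat shock 0 lay within 1 kb, and of 18 at 60 min 5 did. The 3 SRF lists differ in depth, and the unheated one has 19 bp tags while both later ones have 31 bp tags.

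**Figure D4:**
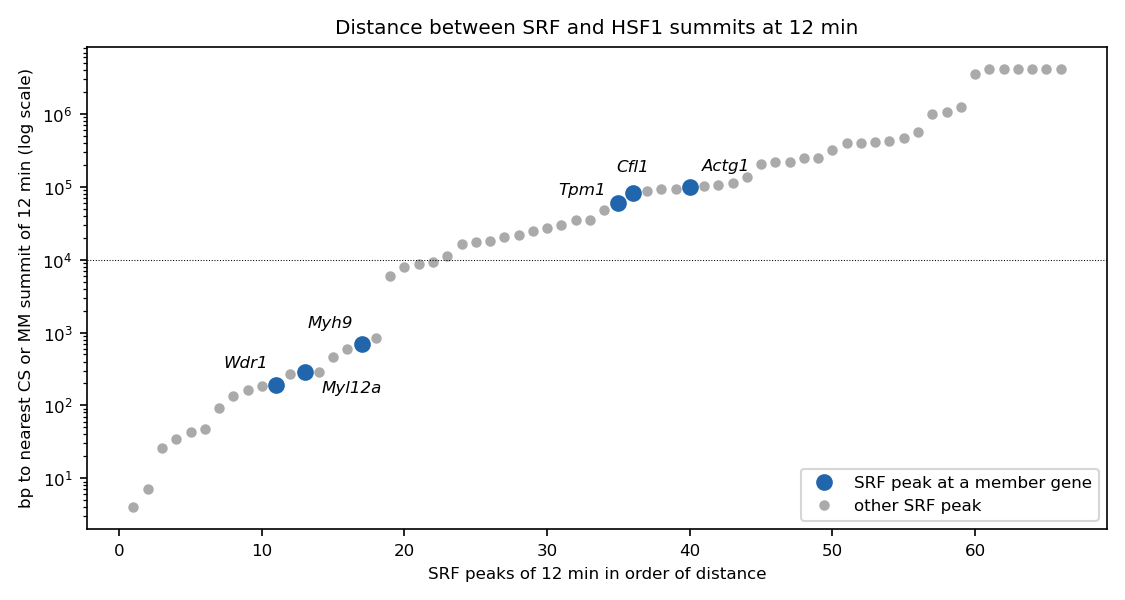
Distance from each SRF summit of 12 min to the nearest CS or MM summit of 12 min, in bp on a log scale, for 66 SRF peaks in order of distance; blue points are the 6 peaks at the named genes and the dotted line is 10 kb. Wdr1, Myl12a and Myh9 are under 1 kb, and Tpm1, Cfl1 and Actg1 are between 60159 and 98717 bp.

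Motif letters were not used to pick the genes, but the search was chosen after the peaks were seen. SRF binds CArG boxes and 6 of the 9 genes had an SRF peak. Box counts at the genes are therefore not independent of how they were picked. Shares over all genes are per window, and none was computed per gene. A CArG box with at most 1 mismatch was in 8 of the 11 promoter windows, 1 or more at 8 of the 9 genes, and in 21.1% of 32817 windows of all genes. Exact boxes were in 1.63% of all windows. The box reads the same on both strands. GAANNTTC was in 7.86%, TTCNNGAA in 8.51% and either in 15.1% of all windows. Both of these read the same on either strand, and they can overlap each other. At 12 min 15 of the 68 SRF summits fell in a promoter window, 12 with a box in the window and 9 within 20 bp of one. The summits at Wdr1, Myl12a and Tpm1 were among these 9. Of the windows with a wild type HSF1 summit, 66.0% (CS) and 57.1% (MM) held either core at 12 min. The Wdr1 and Flnc windows, which held CS summits of 12 min, had neither core. A match is a description and not a binding site, and the absence of these letters says nothing of what binds outside or by another sequence.

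The other genes of the actomyosin list numbered 51. Wild type peaks of both HSF1 antibodies were at 0 of 51 in unheated cells, at 7 after 12 min and at 9 after 60 min. The shares of all protein-coding genes were 0.535%, 5.32% and 11.3%. SRF was at 1 of the 51, Dstn, at 12 min, against 0.251% of all. HSF1-/- peaks of either antibody were at 24, 21 and 22 of the 51 at the 3 times, against 26.1%, 26.2% and 24.0% of all. Of the actins, Actb, cytoplasmic beta-actin, had peaks of 97 CS and 98 MM tags at 12 min and 145 CS and 74 MM tags at 60 min. These peaks lay outside the gene but within 10 kb of it. Among actin turnover genes, Dstn, which encodes a relative of cofilin, had an SRF peak of pileup 3 that lay 262 bp before its start, inside Bfsp1. Gsn, encoding the filament-severing gelsolin, held 35 CS and 23 MM tags at 12 min, at FDRs of 51.55% and 55.51%, with a CS peak alone at 60 min.

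Branching factors Arpc2 and Actr3 had HSF1 at their starts. Arpc2 had 48 CS and 28 MM tags at 12 min and 108 CS and 67 MM tags at 60 min, the CS summits 261 bp before the start. Its FDRs were 40.83% (CS) and 10.04% (MM) at 12 min and 0.47% and 0.45% at 60 min. Actr3 had 48 CS and 22 MM tags at 12 min and 63 CS and 36 MM tags at 60 min. Its FDRs were 6.61% (CS) and 55.51% (MM) at 12 min and 7.53% and 0.46% at 60 min. Of the cross-linkers, Actn4, an alpha-actinin, had 170 CS and 81 MM tags at 12 min and 172 CS and 65 MM tags at 60 min about the same place, the first CS summit 31130 bp after its start. Of the myosin genes, Mylk, the light chain kinase, held 68 CS and 53 MM tags at 12 min and 124 CS and 37 MM tags at 60 min. Myh11, Myl12b and the phosphatase subunit Ppp1cb joined at 60 min, Myl12b through the region also assigned to Myl12a and Myh11 with FDRs of 1.83% (CS) and 18.62% (MM). Srf itself and its coactivators Mrtfa and Mrtfb had neither wild type HSF1 by both antibodies nor SRF at any time. Mrtfb had a wild type peak of CS or MM, not both, at 60 min. Mrtfa and Mrtfb had HSF1-/- peaks before heat shock and at 12 and 60 min.

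Outside the list, 20 protein-coding genes had SRF and HSF1 (CS or MM) within the gene or 10 kb at 12 min. Ranked by the smallest distance between SRF and HSF1 summits, the first 6 were Gal3st3 and Sf3b2, which share a peak at 4 bp, Wdr70 at 133 bp, Ermard and Tcte3 at 164 bp and 9030025P20Rik at 182 bp, the last with Gm3417 at the same peak. The SRF peaks at these 6 had a pileup of 3 tags. Their −log10 q was 0.53 at Gal3st3 and Sf3b2 and 1.29 at the others, so none met the limits of 1.3 or 4 tags given above. The distance was 193 bp at Wdr1 and 283 bp at Myl12a, with Ap5b1 between them at 267 bp, and Myom1 shares the Myl12a peak.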

How the data were processed

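Peak lists of 15 ChIP-seq libraries were used. Per the file headers, the authors' CS and MM peaks came from MACS 1.4.2 (p cutoff 0.0001), wild type against IgG of the same time from inputs whose names give 2 replicates, and HSF1-/- without a control. SRF peaks were called with MACS 2.0.9 against IgG, per the file headers. Per the file headers, deposited values are tag counts, a score (minus 10 times the log10 p), fold enrichment (a ratio) and an FDR in percent. For SRF they are the pileup (a signal) and the −log10 p and q, as deposited. These are the authors' values per peak and were used only within a list. The labels name mm10 as the build. No source used here names the aligner.

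Summits were assigned to genes of the RefSeq GRCm38.p6 table (same primary assembly as mm10) when inside the gene or within 10 kb. Distances to starts use the nearest start of the RefSeq promoter table, and coordinates are 1-based. Peaks were merged when they overlapped by at least 1 bp. There was 1 list per group, so nothing was tested. Named genes were the 9 members, each other gene of a 60-gene actomyosin list with HSF1 by both antibodies or SRF, up to 6 genes with the closest SRF and HSF1 summits, and genes overlapping or nearest a member's peak; 1 gene that meets this rule is not reported here. Members and lists were chosen with earlier results of these data known. The assignment of summits to genes by the window was checked on simulated data. All code was run in Python 3.11.15 with pandas 2.3.3, numpy 2.4.6 and matplotlib 3.10.9. Alternatives changed the window, tag and score minimums, FDR, antibody and the point used as the summit.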

Additional observations from a re-analysis of the deposited data

How the results depend on the processing

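Over 15 results 102 alternatives were run, and 86 gave a value within 1.5 times the reported one. The 86 include counts of 0 before heat shock and at 60 min. Limits that only remove peaks could not change such counts, so the 86 do not measure how stable the results are. Wild type peaks of both antibodies were at 5 genes at 60 min in every alternative run for that count, and at 5 or 4 at 12 min, with 4 when the FDR had to be at most 5%, the score at least 100, or no HSF1-/- peak overlapped. HSF1-/- counts moved most. With a score of at least 100 they were 0 before heat shock and 0 at 12 and at 60 min. With 10 tags or more they were 1, 3 and 0 at the 3 times. With both antibodies required, 1 gene remained in the count before heat shock and 1 at 60 min. With CS alone (chosen after seeing the data) they were 3 before and 2 at 60 min, and with MM alone (likewise) 3 before heat shock. SRF at 12 min was at 3 genes, Wdr1, Myl12a and Tpm1, when the gene's own start had to be the nearest (chosen after seeing the data), and at 4 with a −log10 q of at least 1.3 or a pileup of at least 4, which leave out Myl12a and Myh9. Under either of these limits (added for this count after seeing the data) SRF with HSF1 at 12 min was at 1 gene, Wdr1, in place of 3. Measured between peak midpoints, the HSF1 to SRF distance was 44 bp at Myl12a and 233 bp at Myh9. Shares of all protein-coding genes were not computed under the score, tag, FDR, −log10 q, pileup, single-antibody or nearest-start limits. Counts under those limits are therefore not compared with other genes. The cause of the differences between alternatives was not tested. No paired analysis was possible because there was 1 list per genotype, antibody and time. SRF depth and differing controls limit every comparison between lists.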

Other observations

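A further SRF peak of 12 min, chosen after its values were seen, lay 21.2 kb from Actb, outside the 10 kb window and over no annotated gene, at chr5:142929104-142929349. It had a pileup of 5 tags and a −log10 q of 4.69. HSF1 peaks of wild type cells overlapped it, with 253 CS and 163 MM tags at 12 min and 268 CS and 130 MM tags at 60 min. The nearest HSF1 summit of 12 min, of CS, was 283 bp from the SRF summit, and the MM summit was 334 bp from it.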
